A study of Mus musculus with 8 samples.

Results

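The thin filament of heart muscle is described here through 10 genes, the rows of the deposited table named *Actc1*, *Acta1*, *Acta2*, *Tnnt1*, *Tnnt2*, *Tnni1*, *Tnni3*, *Tnnc1*, *Tpm1* and *Tagln*. They were 10 of 24385 features in the table and 10 of the 10018 genes whose mean reached 1 FPKM (fragments per kilobase of transcript relative to all mapped fragments), since all 10 passed that filter. RNA was sequenced from dissected hearts of C57BL/6 mouse embryos at embryonic day 8.5 (E8.5) or 9.5 (E9.5), with 2 libraries in each of 4 groups of stage and genotype. Control embryos, labelled WT, were *Dgcr8* loxP/loxP; *Rosa26* mT/mG/+ and carried no Cre, while conditional knockout (cKO) embryos had both of these and *Mesp1* Cre/+ as well. All 4 groups thus carried floxed *Dgcr8* and the reporter allele, and only the cKO groups carried Cre in place of 1 *Mesp1* copy. Cre from *Mesp1* acts in the early mesoderm that gives rise to the heart, so that cells from other origins in a dissected heart keep *Dgcr8*. The number of hearts behind a library was not given in the sources used here.

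The thin filament is a double strand of actin along which tropomyosin lies, with a troponin complex at regular intervals. Troponin C binds calcium, troponin I inhibits the filament at rest and troponin T ties the complex to tropomyosin. Each subunit exists as several isoforms from separate genes, named for the adult muscle that uses them: cardiac (*Actc1*, *Tnnt2*, *Tnni3*), skeletal (*Acta1*), slow skeletal (*Tnnt1*, *Tnni1*) and smooth muscle (*Acta2*). The young heart tube makes several of them together, and slow skeletal troponin I gives way to cardiac troponin I as the heart matures. *Tnnc1* is shared by heart and slow muscle, the *Tpm1* gene makes striated and smooth muscle tropomyosins by splicing, and *Tagln* encodes transgelin (SM22), an actin-binding protein of smooth muscle that the heart tube also makes. DGCR8 is needed to cut primary microRNA transcripts, and the study asked what happens to cardiac genes when it is lost.

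*Dgcr8* itself was listed at 7.10 and 8.60 FPKM in E8.5 control hearts and at 1.64 and 4.67 FPKM in the cKO hearts of that stage. At E9.5 it was at 3.49 and 3.23 FPKM in WT and at 1.15 and 1.77 FPKM in cKO, so the cKO libraries lay below the WT libraries at both stages. The change did not pass the test at either stage (log2 change -1.19 and -0.84, limma adjusted p = 0.590 and 0.317). The absolute depth of the libraries was unknown, and their relative depth spanned 1 to 1.45. Summed FPKM of markers of decidual stroma, the maternal tissue around the embryo, was 468 and 1163 in E8.5 WT hearts, 10.6 and 5156 in E8.5 cKO hearts and at most 5.16 at E9.5. Uterine natural killer cell markers summed to 503 FPKM in E8.5 WT replicate 1 and to between 0.532 and 2.44 FPKM in the other libraries. The decidual sum was mostly *Prl8a2*, at 449 FPKM in E8.5 WT replicate 1 and 5104 in E8.5 cKO replicate 2. *Prl3c1* was at 8.50 and 40.9 FPKM in these 2 libraries. The other markers were closer, with *Hoxa10* at 8.10 and 8.59, *Hoxa11* at 2.03 and 1.97 and *Pgr* at 0.530 and 0.704 FPKM. E8.5 cKO replicate 2, with the highest decidual marker sum, also held less of several thin filament transcripts than E8.5 cKO replicate 1. The main E8.5 cKO values are therefore also given without replicate 2.

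The 10 genes held between 2.76% and 6.95% of all FPKM over features with loci of at least 300 bp. That total was 745560 to 952621 FPKM, and 884018 to 1944596 FPKM with the shorter loci, so shares of the larger total are lower. Cardiac actin *Actc1* was highest in every library and ranked between 5 and 7 among the 10018 genes. The order by mean FPKM over the 8 libraries went on with *Tpm1* (6103), *Tnnc1* (4632), *Acta2* (3993), *Tnni1* (3273), *Tnnt2* (2090), *Acta1* (1732), *Tnni3* (683), *Tagln* (589) and *Tnnt1* (23.5). Only the first and the last step of this order had ranges that did not overlap over libraries. *Tnni3* exceeded *Tagln* in 4 of 8 libraries, and *Tnnc1* exceeded *Acta2* and *Tnnt2* exceeded *Acta1* in 6 of 8 each. These neighbours were not ordered beyond their spread. *Tnnt1* was at most 46.5 FPKM and the other 9 genes were at least 131 FPKM in every library.

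**Figure D1:**
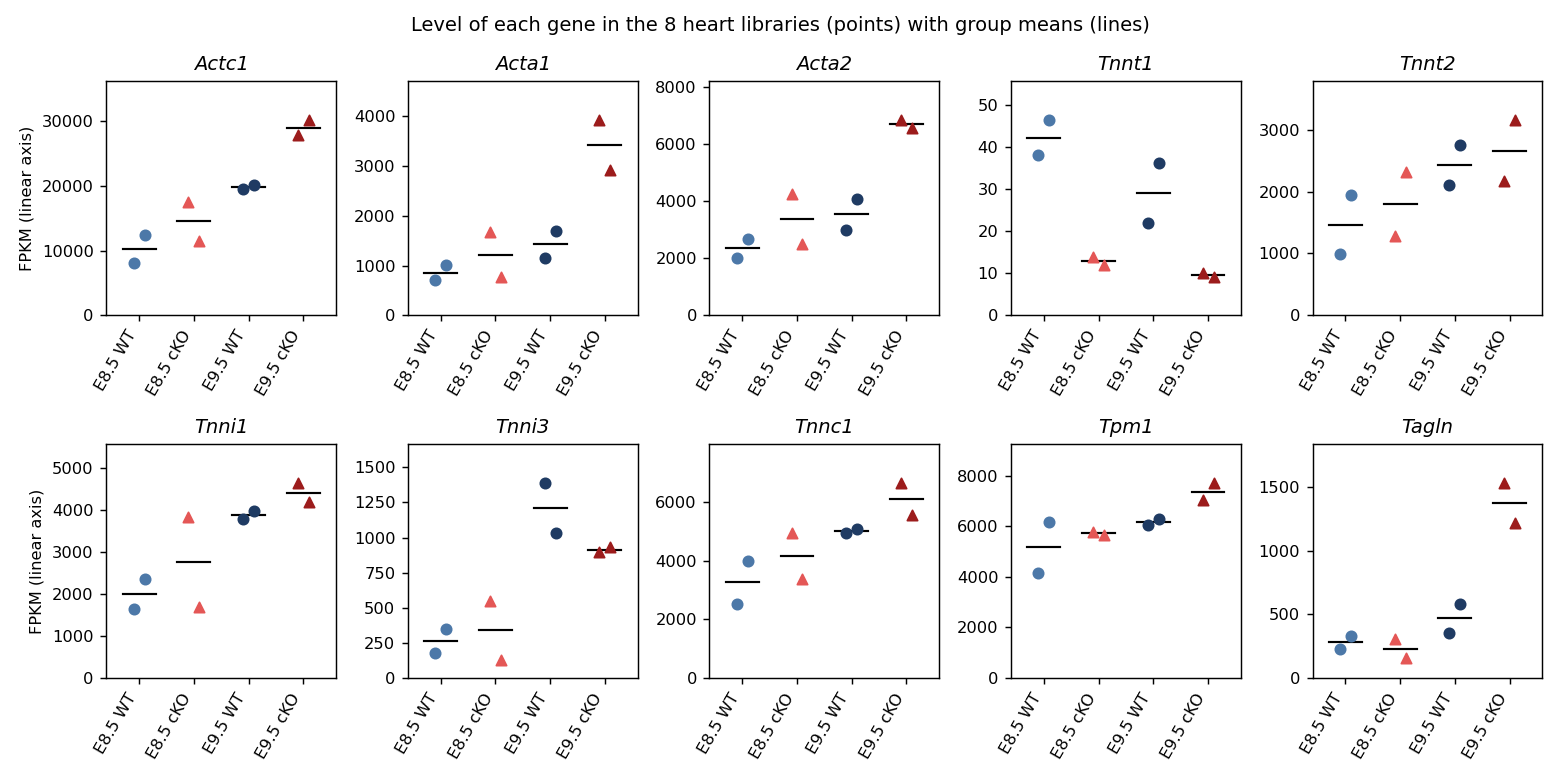
Level of each of the 10 genes in FPKM on a linear axis starting at 0, with 1 point per library, 2 per group, and a line at the group mean. For 7 of the 10 genes (*Actc1*, *Acta1*, *Acta2*, *Tnni1*, *Tnnc1*, *Tpm1* and *Tagln*) both E9.5 cKO libraries stood above both E9.5 WT libraries (21% of all genes). *Tnnt1* was lower in all 4 cKO libraries (at most 14.0 FPKM) than in all 4 WT libraries (at least 22.0 FPKM). *Tnni3* was higher in all 4 E9.5 libraries than in all 4 E8.5 libraries.

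Changes were tested with limma on log2(FPKM + 1) over all 10018 genes, and a gene passed where it changed at least 1.5-fold with a Benjamini-Hochberg adjusted p under 0.05. In bulk tissue, fewer cells of a type and less RNA per cell cannot be told apart. Between genotypes at E8.5, 0 of the 10 genes passed, against 0.00998% of all genes, and 1 had an unadjusted p under 0.05, against 7.81% of all genes. The cKO libraries lay wholly above the WT libraries for 0 of the 10 (2.54% of all genes) and wholly below for 1 (40.1% of all genes). At E9.5, again 0 of 10 passed (0.18% of all genes), while 4 had an unadjusted p under 0.05 (15.7% of all genes). The share that passed at E9.5 stood for 17 genes higher and 1 lower. It became 54 and 2 after scaling the libraries to a common median, and 0 and 0 in a fit of these 4 libraries alone. The genotype counts over all genes also depended on single libraries. For 7 of the 10, both E9.5 cKO libraries lay above both WT libraries (21% of all genes), and for 2 they lay below (31.1% of all genes). The median log2 change of the 10 genes was 0.34 at E8.5 and 0.27 at E9.5, where the median over all genes was -0.28 and -0.07. The E8.5 median turned to -0.042 without E8.5 WT replicate 1 and to -0.027 without E8.5 cKO replicate 1, and was 0.72 without E8.5 cKO replicate 2. Quantile normalization brought it to 0.047 at E8.5 and 0.031 at E9.5.

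Between the 2 stages of WT hearts, 2 of the 10 genes rose (1.4% of all genes) and 0 fell (46.7% of all genes). The E9.5 libraries lay above the E8.5 libraries for 8 of 10 (5.43% of all genes) and below for 1 (80.1% of all genes). In cKO hearts, 4 of 10 rose over the same interval (2.05% of all genes) and 0 fell (28.5% of all genes), with 8 of 10 not overlapping and higher (7.05% of all genes) and 1 lower (62.7% of all genes). These counts over all genes depended on single libraries. In WT they were 4 higher and 28 lower without E8.5 WT replicate 1, 16 and 184 without replicate 2, 10 and 48 without E9.5 WT replicate 1, and 85 and 2204 without replicate 2. In cKO they were 1 and 0 without E9.5 cKO replicate 1 and 1 and 1 without replicate 2, so that nearly all cKO stage calls of any gene named here are lost in either case. The median log2 change with stage was 0.72 in WT and 0.91 in cKO for the 10 genes, and -0.84 and -0.64 over all genes. Scaling the libraries to a common median moved the balance of all calls from 140 higher and 4683 lower to 321 higher and 69 lower in WT, and from 205 and 2857 to 400 and 77 in cKO, with 6 and 5 of the 10 genes called higher and their medians at 1.72 and 1.67. Quantile normalization gave 0 and 1 calls and medians of 0.32 and 0.43, and without the filter on low values 0 and 1 of the 10 passed. The cardiomyocyte marker genes gave sums of 16080 and 27515 FPKM for E8.5 WT hearts, 36408 and 24580 in E8.5 cKO hearts, 36796 and 34039 in E9.5 WT hearts, and 49483 and 46186 in E9.5 cKO hearts, so that the sum was highest in both E9.5 cKO libraries. Most of it was atrial light chain *Myl7*, at 12315 to 33663 FPKM, and not every marker followed it: *Myh6*, alpha-myosin heavy chain, was at 916 and 777 FPKM in E9.5 WT hearts and at 424 and 567 in E9.5 cKO hearts. Over the 7 markers, 4 had both E9.5 cKO libraries above both WT libraries (21% of all genes) and 1 had them below (31.1% of all genes). Primitive erythroid markers summed to 7786 and 23834 FPKM (E8.5 WT), 35505 and 9750.4 (E8.5 cKO), 14430 and 29567 (E9.5 WT), and 39587 and 29103 (E9.5 cKO), with 4 of 7 higher in both E9.5 cKO libraries than in both WT libraries (21% of all genes). Yolk sac endoderm markers summed to 756 and 2619 FPKM (E8.5 WT), 6860 and 2015 (E8.5 cKO), 6563 and 4966 (E9.5 WT), and 4312 and 6606 (E9.5 cKO). The part of these lists in the changes of the 10 genes was not tested.

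**Figure D2:**
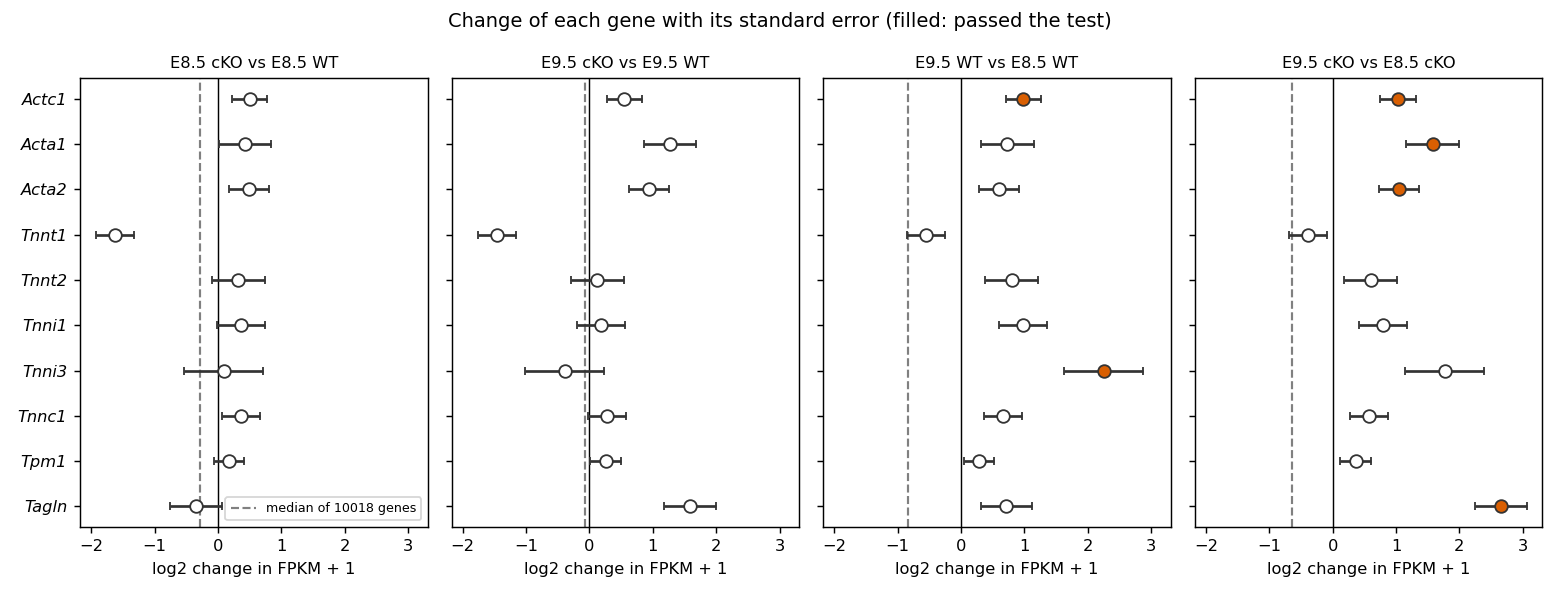
Log2 change in FPKM + 1 of each gene (circles) with its standard error (bars) in the 4 comparisons, with the median over 10018 genes as a dashed line. Filled circles mark the genes that passed the test: 0 in either genotype comparison, *Actc1* and *Tnni3* between WT stages, and *Actc1*, *Acta1*, *Acta2* and *Tagln* between cKO stages.

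The alpha-actin proteins differ by few residues, and the letters of their genes diverge more. Over the 1134 coding bases, *Actc1* shared 86.2% of bases with *Acta1* and 82.5% with *Acta2*, and *Acta1* and *Acta2* shared 85.4%. No run of 50 bases was common to any pair of these transcripts, and how the authors' counting treated shorter shared stretches was not given in the sources used here. The genes lie at chr2:114047284-114052875 (*Actc1*), chr8:123891758-123894775 (*Acta1*) and chr19:34240336-34255373 (*Acta2*) on GRCm38. Serum response factor binds the CArG box of muscle promoters, searched here only in its strict form, CCWWWWWWGG with W for A or T. This form stood in the 250 bases before the RefSeq start in 2 of the 9 genes with a promoter entry, *Actc1* and *Acta1*. The share over 27025 genes was 1.62%. Near matches were not counted, such as ccctatatgg in the windows of *Actc1* and *Acta2*. Both stretches are shown because they belong to the alpha-actin pair whose levels are compared below, on GRCm38.p6, chr2:114052876-114053125 and chr8:123894776-123895025, minus strand, with the CArG box in capitals.
Actc1: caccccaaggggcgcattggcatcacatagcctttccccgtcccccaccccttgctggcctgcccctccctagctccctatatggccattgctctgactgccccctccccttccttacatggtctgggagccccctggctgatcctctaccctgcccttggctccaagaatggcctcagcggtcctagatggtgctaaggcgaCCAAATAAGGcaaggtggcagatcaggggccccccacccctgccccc
Acta1: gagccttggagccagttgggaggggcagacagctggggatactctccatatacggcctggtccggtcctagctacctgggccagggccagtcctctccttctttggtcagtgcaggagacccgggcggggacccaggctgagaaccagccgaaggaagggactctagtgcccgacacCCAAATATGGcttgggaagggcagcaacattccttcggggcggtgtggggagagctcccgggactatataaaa
The box ran from -47 to -38 in *Actc1* and from -73 to -64 in *Acta1*, counted from the RefSeq start. Other short motifs were less selective: CATTCC stood in 5 of 9 genes (14.4% of all genes), TATAAA in 2 of 9 (14.3%) and CANNTG in 8 of 9 (69.3%), each searched on both strands. A match of letters is a description, and binding was not measured.

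*Actc1* was listed at 8109.9 and 12372 FPKM in E8.5 WT hearts, 17491 and 11490 in E8.5 cKO hearts, 19432.5 and 20165 in E9.5 WT hearts, and 27813 and 30146 in E9.5 cKO hearts. It was higher in all 4 E9.5 libraries than in all 4 E8.5 libraries, and highest in E9.5 cKO hearts. It rose with stage by 0.98 on the log2 scale in WT (SE 0.28, adjusted p = 0.0260 by limma) and by 1.03 in cKO (SE 0.28, adjusted p = 0.0318). At E9.5 the cKO to WT change was 0.55 (SE 0.28, adjusted p = 0.388), with a 95% interval from -0.10 to 1.19.

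Skeletal alpha-actin, *Acta1*, was at 701 and 1017 FPKM in E8.5 WT hearts, 1677 and 766 in E8.5 cKO hearts, 1162 and 1688 in E9.5 WT hearts, and 3925 and 2922 in E9.5 cKO hearts. Its E9.5 cKO libraries lay above every other library, while the E8.5 groups overlapped. Between genotypes at E9.5 the log2 change was 1.27 (SE 0.41, unadjusted p = 0.0154 and adjusted p = 0.204 by limma), which did not pass. With stage it rose by 1.58 in cKO (SE 0.41, adjusted p = 0.0297), and in WT the change was 0.73 (SE 0.41, adjusted p = 0.161).

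Smooth muscle alpha-actin, *Acta2*, was at 2003 and 2689 FPKM in E8.5 WT hearts, 4246 and 2489 in E8.5 cKO hearts, 3003 and 4096 in E9.5 WT hearts, and 6853 and 6565 in E9.5 cKO hearts. Again both E9.5 cKO libraries exceeded all others. The genotype change at E9.5 was 0.94 (SE 0.32, unadjusted p = 0.0186 and adjusted p = 0.220 by limma), and the rise with stage in cKO was 1.04 (SE 0.32, adjusted p = 0.0420). In WT hearts the *Acta2* stage change was 0.60 (adjusted p = 0.139), and 1.60 with an adjusted p = 0.0326 after median-ratio scaling. These actin calls depended on single libraries. Leaving out E8.5 cKO replicate 2, which had the highest decidual marker sum, brought the cKO stage change of *Actc1* to 0.73, of *Acta1* to 1.01 and of *Acta2* to 0.66, and none then passed. None of the 3 passed without E9.5 cKO replicate 1 or 2 either, and *Acta2* also failed without E8.5 WT replicate 1 or 2. Over all such omissions the adjusted p ranged from 0.0332 to 0.147 for *Actc1*, from 0.0127 to 0.124 for *Acta1* and from 0.0228 to 0.154 for *Acta2*. In WT hearts the stage call of *Actc1* was lost without any 1 of the 4 WT libraries, with adjusted p of 0.0591 to 0.164.

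Ratios taken within a library do not depend on a factor that scales the whole library, but quantile normalization can change them. *Acta1* stood at 8.64% and 8.22% of *Actc1* in E8.5 WT hearts, 9.59% and 6.67% in E8.5 cKO hearts, 5.98% and 8.37% in E9.5 WT hearts, and 14.1% and 9.69% in E9.5 cKO hearts. The E9.5 cKO hearts thus had the highest skeletal to cardiac actin ratios of all libraries, 1.65-fold above E9.5 WT. *Acta2* was between 15.5% and 24.7% of *Actc1*, and the E9.5 cKO to WT difference was 1.31-fold, with both cKO libraries higher. With 2 libraries per group the smallest two-sided p of an exact permutation test is 0.3333, and both ratios gave that value (adjusted over 6 ratios, p = 0.400). Between stages, with 4 libraries against 4, the ratio to *Actc1* did not differ beyond the spread for *Acta1* (exact permutation p = 0.600) or *Acta2* (p = 0.314). *Actc1* made up 72.1% to 82.3% of the summed alpha-actins in every library.

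**Figure D3:**
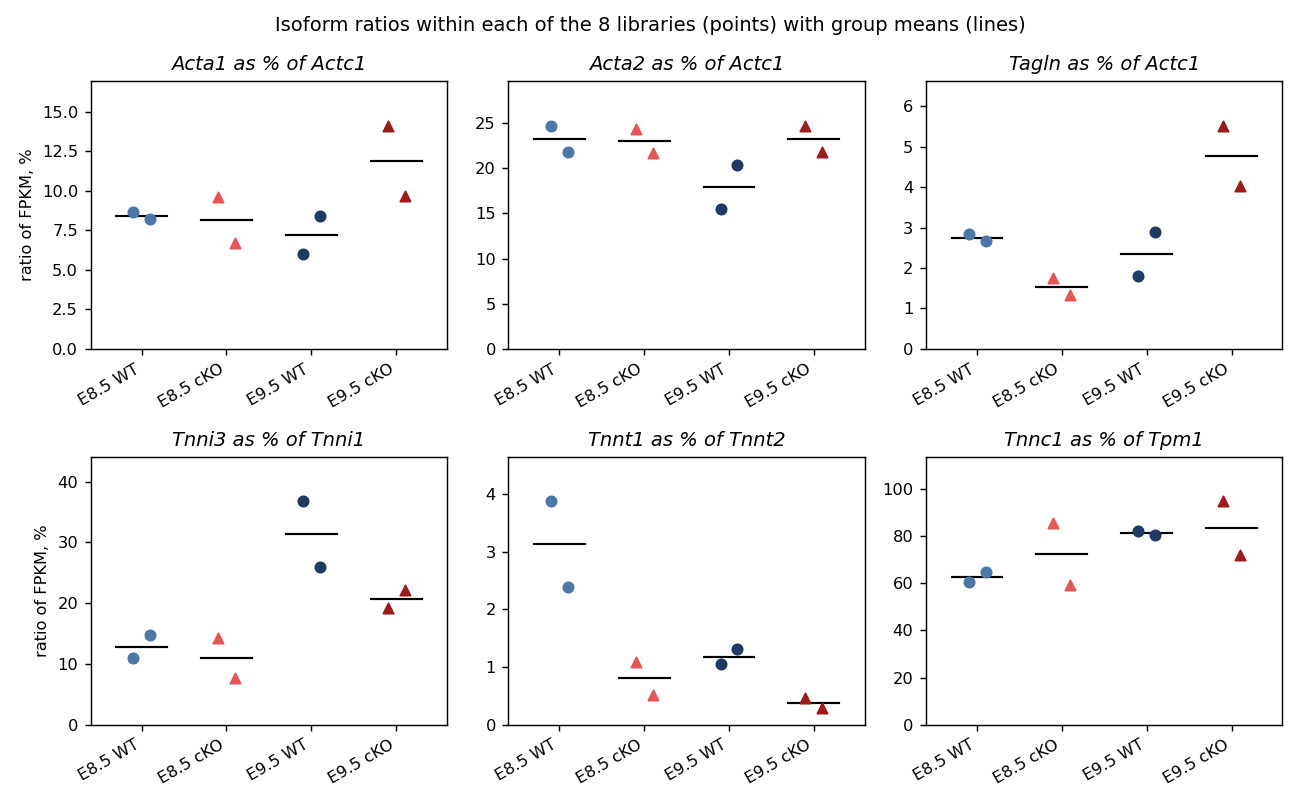
Ratios of FPKM within each library, as a percentage on a linear axis starting at 0, with 1 point per library and a line at the group mean. *Tnni3* stood at 7.68% to 14.8% of *Tnni1* at E8.5 and at 19.2% to 36.8% at E9.5, *Tnnt1* was lower against *Tnnt2* in cKO at both stages, and *Tagln* against *Actc1* lay below WT in E8.5 cKO and above WT in E9.5 cKO hearts.

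*Tagln*, at chr9:45929628-45936058, had the largest genotype change of the 10 genes at E9.5. It was listed at 231 and 330 FPKM in E8.5 WT hearts, 306 and 154 in E8.5 cKO hearts, 352 and 586 in E9.5 WT hearts, and 1536 and 1218 in E9.5 cKO hearts. The 2 E9.5 cKO libraries were far above every other library, and the E8.5 groups overlapped. The E9.5 genotype change was 1.59 on the log2 scale (SE 0.41, 95% interval 0.64 to 2.54), with an unadjusted p = 0.00475 and an adjusted p = 0.139 by limma, so it did not pass over all genes. From E8.5 to E9.5 it rose by 2.65 in cKO hearts (SE 0.41, adjusted p = 0.0160), and the change still passed without E8.5 cKO replicate 2, at 2.16 (adjusted p = 0.0309). It did not pass without E9.5 cKO replicate 1 (2.48) or replicate 2 (2.82), and over the omissions of each of the 8 libraries the adjusted p ranged from 0.00573 to 0.0908. In WT hearts the change was 0.72 (SE 0.41, adjusted p = 0.163). The difference between the genotype changes at the 2 stages was 1.93 (SE 0.58, unadjusted p = 0.0104, adjusted p = 0.551). For that interaction 0 of the 10 genes passed (0.0399% of all genes), and *Tagln* was the only one of them with an unadjusted p under 0.05, against 7.18% of all genes.

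Relative to *Actc1* in the same library, *Tagln* was at 2.84% and 2.67% in E8.5 WT hearts, 1.75% and 1.34% in E8.5 cKO hearts, 1.81% and 2.90% in E9.5 WT hearts, and 5.52% and 4.04% in E9.5 cKO hearts. Against cardiac actin it was therefore lower in cKO than in WT at E8.5 (0.556-fold) and higher at E9.5 (2.06-fold), with no overlap at either stage. Without E8.5 cKO replicate 2 the E8.5 value was 0.634-fold. Each of these differences gave the smallest p that 2 against 2 libraries allow (exact permutation p = 0.3333, adjusted over 6 ratios 1 at E8.5 and 0.400 at E9.5). Exchanging genotype labels within each stage gave an exact permutation p = 0.0556 for the difference of 1.89 between the 2 log2 changes. This was the smallest p of its 36 arrangements, and 0.3333 after adjustment over 6 ratios. Given no overlap in opposite directions at the 2 stages, no other p was possible, so it adds no support. The *Tagln* locus shares 95 bp with the end of *Pcsk7*, which had a mean of 4.74 FPKM.

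Cardiac troponin I, *Tnni3*, was listed at 181 and 349 FPKM in E8.5 WT hearts, 549 and 131 in E8.5 cKO hearts, 1390 and 1035 in E9.5 WT hearts, and 895 and 932 in E9.5 cKO hearts. All 4 E9.5 libraries exceeded all 4 E8.5 libraries, and at E9.5 both cKO libraries lay below both WT libraries. In WT hearts it rose by 2.25 on the log2 scale (SE 0.62, adjusted p = 0.0242 by limma), a 4.75-fold difference. This was the largest WT stage change of the 10 genes, and the call was lost without any 1 of the 4 WT libraries, where the change stayed between 1.78 and 2.72 and the adjusted p between 0.0575 and 0.128. In cKO hearts the change was 1.77 (SE 0.62, adjusted p = 0.0615), and it rested on the E8.5 libraries: it was 2.80 without E8.5 cKO replicate 1, with an adjusted p = 0.00872, and 0.73 without replicate 2, with an adjusted p = 0.201. The genotype change at E9.5 was -0.39 (SE 0.62, 95% interval -1.82 to 1.04, adjusted p = 0.834), an interval that holds changes of more than 2-fold in either direction.

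Slow skeletal troponin I, *Tnni1*, the isoform of the fetal heart, was at 1654 and 2368 FPKM in E8.5 WT hearts, 3842 and 1700.2 in E8.5 cKO hearts, 3781 and 3993 in E9.5 WT hearts, and 4656 and 4192 in E9.5 cKO hearts. It was above *Tnni3* in every library. Its log2 change with stage was 0.97 in WT (SE 0.38, adjusted p = 0.0636) and 0.79 in cKO (SE 0.38, adjusted p = 0.137), and neither passed. The WT change of *Tnni1* passed after median-ratio scaling (1.97, adjusted p = 0.0277), after the GC adjustment (1.65, adjusted p = 0.0351), in a fit of the 4 WT libraries alone (adjusted p = 0.0279) and without either E8.5 cKO library (adjusted p = 0.0181 and 0.0180). Its cKO change was 1.38 without E8.5 cKO replicate 1 (adjusted p = 0.0216) and 0.20 without replicate 2 (adjusted p = 0.617). The share of *Tnni3* in the sum of both was 9.87% and 12.9% in E8.5 WT hearts and 12.5% and 7.13% in E8.5 cKO hearts. It reached 26.9% and 20.6% in E9.5 WT hearts and 16.1% and 18.2% in E9.5 cKO hearts. The cardiac isoform thus took a larger share at E9.5 in both genotypes and a smaller one in cKO than in WT at that stage. The ratio of *Tnni3* to *Tnni1* was 2.18-fold higher at E9.5, without overlap between the 4 E9.5 and the 4 E8.5 libraries (exact permutation p = 0.0286, the smallest possible, and 0.171 adjusted over 6 ratios). At E9.5 it was 0.670-fold in cKO against WT (exact permutation p = 0.3333, adjusted 0.400).

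*Tnnt1*, the slow skeletal troponin T, lies at chr7:4504570-4515975, 2332 bp from *Tnni3* (chr7:4518308-4522443). It was at 38.1 and 46.5 FPKM in E8.5 WT hearts, 14.0 and 12 in E8.5 cKO hearts, 22.0 and 36.2 in E9.5 WT hearts, and 9.99 and 9.20 in E9.5 cKO hearts. At both stages every cKO library was below every WT library, and at each stage it had the most negative genotype change of the 10 genes. At E8.5 its log2 change came to -1.63 (SE 0.30, 95% interval -2.32 to -0.94, unadjusted p = 0.000618, adjusted p = 0.590 by limma), and -1.52 without E8.5 cKO replicate 2. At E9.5 it was -1.47 (SE 0.30, 95% interval -2.16 to -0.78, unadjusted p = 0.00120, adjusted p = 0.109). Neither change passed over all genes, and the direction held under the 18 alternatives run for these comparisons, which leave out the crossed pairing, from -1.77 to -1.27 at E8.5 and from -1.81 to -1.12 at E9.5. With stage the change was -0.56 in WT and -0.40 in cKO (adjusted p = 0.140 and 0.314), which was less negative than the median over all genes and turned positive when libraries were scaled to a common median (0.41 and 0.30).

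Cardiac troponin T, *Tnnt2*, was between 985 and 3157 FPKM, and its genotype groups overlapped at both stages. Its genotype change at E9.5 was 0.12 (SE 0.42, 95% interval -0.84 to 1.09, adjusted p = 0.941). *Tnnt1* made up 3.73% and 2.34% of both troponin T genes in E8.5 WT hearts and 1.07% and 0.514% in E8.5 cKO hearts. At E9.5 the share was 1.03% and 1.30% in WT and 0.458% and 0.291% in cKO. The ratio of slow to cardiac troponin T was thus 0.259-fold in cKO against WT at E8.5 and 0.3325-fold at E9.5, without overlap at either stage (exact permutation p = 0.3333 each, adjusted 1 and 0.400). Without E8.5 cKO replicate 2 the E8.5 ratio was 0.373-fold. *Tnnt2* (chr1:135836334-135852268) lies 25344 bp from *Tnni1* (chr1:135799421-135810989), which repeats the pairing of a troponin T with a troponin I gene seen on chromosome 7.

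Troponin C and tropomyosin had no second isoform among the 10. Troponin C, *Tnnc1* (chr14:31208312-31211711), ranged from 2511 to 6655 FPKM and tropomyosin *Tpm1* (chr9:67022593-67049213) from 4142 to 7715 FPKM. Neither passed in any comparison on FPKM as deposited: the largest log2 change of *Tnnc1* was 0.66 (WT stage, SE 0.30, adjusted p = 0.0951) and that of *Tpm1* was 0.36 (cKO stage, SE 0.24, adjusted p = 0.259). With median-ratio scaling the WT stage change was 1.66 for *Tnnc1* (adjusted p = 0.0251) and 1.28 for *Tpm1* (adjusted p = 0.0437), the cKO stage change of *Tnnc1* was 1.33 (adjusted p = 0.0444), and these passed. An adjustment for transcript GC content, added after the data were seen, also gave WT calls for *Tnnc1* (1.36, adjusted p = 0.0351) and *Tpm1* (1.05, adjusted p = 0.0490), while quantile normalization turned both genes negative with stage (-0.033 and -0.48 in WT). At E9.5 both cKO libraries lay above both WT libraries for each gene, with changes of 0.28 and 0.26. *Tnnc1* was at 59.4% to 94.8% of *Tpm1* within libraries, and the ratio did not differ beyond the spread between stages (exact permutation p = 0.114) or between genotypes (p = 1 at each stage).

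Of 11 further genes of the same families, 1 passed between genotypes at E9.5 (0.18% of all genes), 4 at an unadjusted p under 0.05 (15.7%), and 0 at E8.5 (0.00998%), where limma gave *Tnnc2* the lowest adjusted p, 0.590, and the 1 unadjusted p under 0.05 (7.81% of all genes). The gene that passed was *Tpm2*, beta-tropomyosin. It was at 57.1 and 54.6 FPKM in E8.5 WT hearts, 62.4 and 55.4 in E8.5 cKO hearts, 27.4 and 32 in E9.5 WT hearts, and 166.4 and 166.1 in E9.5 cKO hearts. With stage it rose by 1.48 on the log2 scale in cKO hearts (adjusted p = 0.0160 by limma), a call lost without E9.5 cKO replicate 1 (adjusted p = 0.0908) or 2 (0.0613). The WT stage change of *Tpm2*, -0.89 (adjusted p = 0.0229), was close to the median over all genes (-0.84), and became 0.084 after median-ratio scaling (adjusted p = 0.864) and -0.090 after quantile normalization (adjusted p = 0.880). It also missed the threshold without any 1 of the 4 WT libraries. The genotype change at E9.5 was 2.45 on the log2 scale (SE 0.24, 95% interval 1.89 to 3.0, adjusted p = 0.0130 by limma), a 5.46-fold difference, and it lay between 2.29 and 2.58 under the 18 alternatives run for it. The call was lost without any 1 of the 4 E9.5 libraries and when only these 4 were fitted (adjusted p = 0.0695), and over the omissions of each of the 8 libraries the adjusted p ranged from 0.0110 to 0.191. The interaction was 2.38 (SE 0.34, unadjusted p = 0.000118, adjusted p = 0.190), which did not pass. It passed without E8.5 cKO replicate 1 (2.46, adjusted p = 0.0458), and over the 17 alternatives run its adjusted p ranged from 0.0458 to 0.686.

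*Tnni2*, the fast skeletal troponin I, was at a lower level, with 20.2 and 29.0 FPKM in E8.5 WT hearts, 34.5 and 12.8 in E8.5 cKO hearts, 20.3 and 13.5 in E9.5 WT hearts, and 79.5 and 85.5 in E9.5 cKO hearts. Its E9.5 genotype change of 2.25 did not pass (SE 0.45, adjusted p = 0.108), and its rise with stage in cKO did (1.92, adjusted p = 0.0233). With stage, 1 of the 11 genes rose and 4 fell in WT (1.4% and 46.7% of all genes), and 5 rose and 2 fell in cKO (2.05% and 28.5%). For the fast skeletal troponins *Tnnt3* and *Tnnc2* the E9.5 genotype changes were 0.29 and -0.15 (adjusted p = 0.712 and 0.907), and both fell with stage in WT (log2 change -1.44 and -2.97). The cytoplasmic actins *Actb* (mean 5989 FPKM, the most abundant of this list) and *Actg1* rose with stage in cKO by 1.0 and 1.1, and *Actg1* also in WT by 1.01, whereas smooth muscle gamma-actin *Actg2* fell by 2.27 in WT and 1.94 in cKO. *Tagln2* rose in cKO by 1.22. Of 10 markers of skeletal muscle, 3 were listed at 0 in all 8 libraries, *Myog* and *Myf5* among them. The summed list ran from 22.4 to 101.8 FPKM, highest in E8.5 cKO replicate 1 and between 30.3 and 45.2 at E9.5. Nearly all of it was *Mylpf*, the fast skeletal regulatory light chain, at 21.1 to 100.2 FPKM.

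Among 6 tested smooth muscle contractile genes, 0 passed limma's test between genotypes at either stage (0.00998% and 0.18% of all genes), and 0 at E8.5 and 2 at E9.5 had an unadjusted p under 0.05 (7.81% and 15.7% of all genes), and 3 rose with stage in cKO hearts, where 2.05% of all genes did: *Cnn1* (calponin, 1.57), *Cnn2* (1.19) and *Myl9* (a smooth muscle myosin light chain, 1.58). At most 1 of these 3 calls holds without E9.5 cKO replicate 1 or without replicate 2, where 1 gene in all was called higher. *Cnn1* was at 145 and 167 FPKM in E9.5 WT hearts and at 665 and 708 FPKM in E9.5 cKO hearts, a log2 change of 2.13 that did not pass (SE 0.39, adjusted p = 0.0893). The list's median change at E9.5 was 0.60, beside -0.07 over all genes. A list of myometrial smooth muscle markers, which shares genes with it, summed to 583 and 764 FPKM in E9.5 WT and to 1377 and 1389 in E9.5 cKO hearts, with a median change of 0.10 over its 6 tested genes, 3 of them not overlapping and higher (21% of all genes) and 1 lower (31.1%), and decidual markers to at most 5.16 FPKM at E9.5. Mesenchymal and epicardial markers summed to 97.7 and 102.2 FPKM in E9.5 WT and to 27.5 and 33.3 in E9.5 cKO hearts. Of the 7 tested, 6 did not overlap and were lower (31.1% of all genes) and 0 were higher (21%), with a median change of -0.98. Endothelial markers summed to 51.7 and 66.2 FPKM in E9.5 WT and to 79.0 and 78.4 in E9.5 cKO hearts. For these, 3 of 7 did not overlap and were higher (21% of all genes) and 1, *Tek*, was lower (31.1%). Their part in these results was not tested.

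Of 12 tested genes that cap or assemble the thin filament, 0 passed limma's test between genotypes at E8.5 or E9.5 (0.00998% and 0.18% of all genes). At each stage 1 had an unadjusted p under 0.05 (7.81% and 15.7% of all genes). With stage in WT, where 46.7% of all genes fell, 5 of the 12 did: *Tmod3*, *Lmod1*, *Nebl*, *Capza2* and *Cap2*, with changes between -0.93 and -1.57, and 0 rose, with a list median of -0.87 beside -0.84 over all genes. In cKO, *Lmod2*, a leiomodin of striated muscle, rose by 1.37 (2.05% of all genes rose), and *Tmod3*, *Capza1* and *Capza2* fell (28.5% of all genes fell), and these 3 falls were lost without E9.5 cKO replicate 1, where 0 genes were called lower. The most abundant of them, *Capzb*, was between 253 and 308 FPKM in every library. Of the 7 factors of the serum response factor and MEF2 families, 4 fell with stage in WT, where 46.7% of all genes did: *Srf* by 1.51, *Mkl2* by 0.98, *Mef2c* by 2.50 and *Mef2d* by 0.86, against a median over all genes of -0.84. *Myocd*, the most abundant, stood at 45.6 to 47.9 FPKM in the E8.5 libraries and at 17.7 to 36.3 FPKM at E9.5. Between genotypes 0 of the 7 passed limma's test at either stage (0.00998% and 0.18% of all genes). An unadjusted p under 0.05 was found for 0 of them at either stage (7.81% and 15.7% of all genes).

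**Figure D4:**
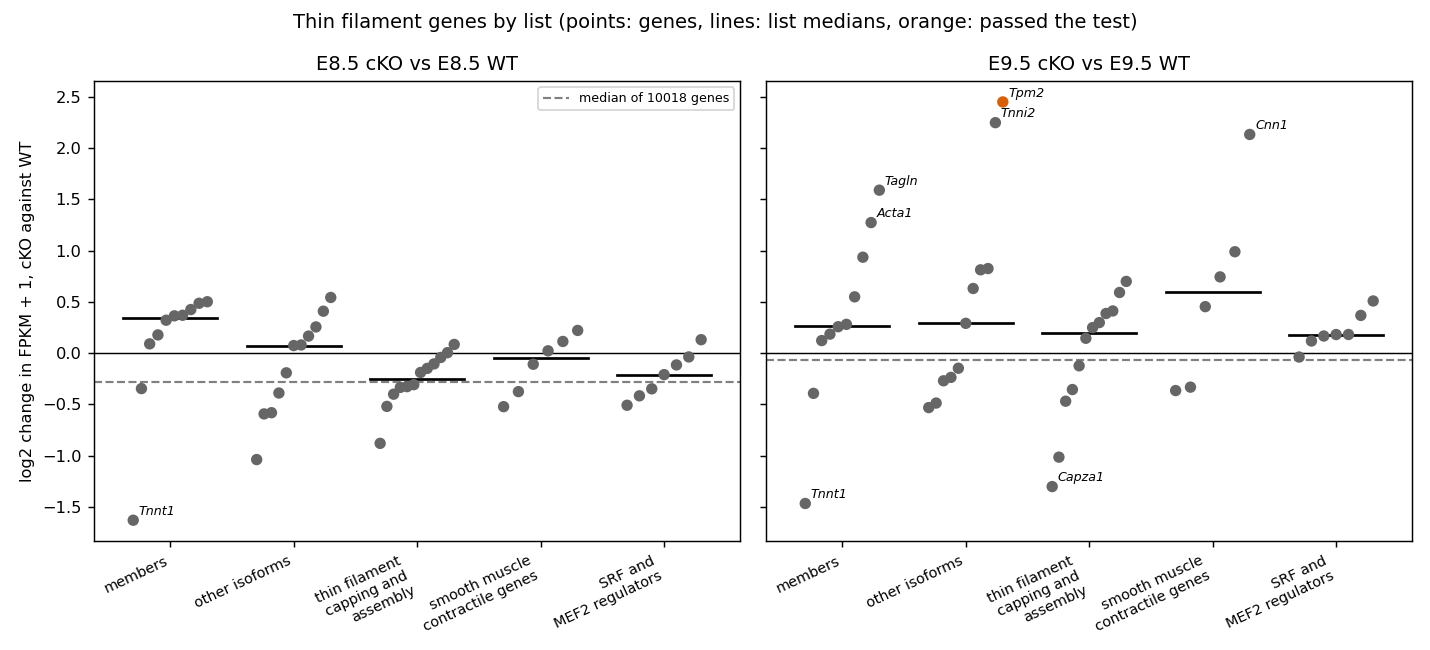
Log2 change in FPKM + 1 between cKO and WT hearts at E8.5 (left) and E9.5 (right) for the 10 genes and 4 lists of related genes, with 1 point per gene, a line at each list's median and a dashed line at the median over 10018 genes. *Tpm2*, in orange, passed the test at E9.5, where *Tnni2*, *Cnn1*, *Tagln* and *Acta1* also lay above 1.2 and *Tnnt1* and *Capza1* below -1.2.

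The genes outside the 10 whose profile over the 8 libraries was most like *Actc1*, by root mean square distance of centred log2 values, were *Timp3* (0.17), *Myl4* (0.17) and *H2-Q2* (0.19). Nearest to *Tnni3* were *Csrp3* (0.30), *Mlip* (0.39) and *Ndrg4* (0.40), of which *Csrp3* encodes a muscle LIM protein of the sarcomere. For *Tagln* they were *Slc2a1* (0.30), *Ndrg2* (0.33) and *Pgm2* (0.35), where *Slc2a1* encodes a glucose transporter and *Pgm2* a sugar phosphate mutase. *Tnnt1* was nearest to *1190002F15Rik* (0.35), *Smim11* (0.37) and *Arxes1* (0.38), and its nearest gene among the 10 was *Tpm1* at 0.99, so it stood apart from the other 9. *Actc1* and *Acta2* were nearest to each other among the 10 (0.21). These distances rank all tested genes on 8 libraries that share their depth and composition, and are a description.

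Across 9122 genes, the Spearman rho between the log2 change and the GC content of the transcript was 0.066 between genotypes at E8.5, 0.405 between genotypes at E9.5, 0.259 between stages in WT and 0.510 between stages in cKO. Between the 2 replicates of a group it ranged from -0.627 (E9.5 WT) to 0.211 (E8.5 WT). The 10 genes had GC contents of 49.0% to 57.0%, beside a median of 50.7% over tested genes, and *Acta1* had the highest. After subtraction of each library's trend with GC content, an alternative added after the data were seen, 4 of the 10 genes rose with stage in cKO and 5 in WT, and 0 passed between genotypes.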

How the data were processed

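RNA of mouse hearts at E8.5 and E9.5 was measured in 8 libraries, 2 biological replicates in each of 4 groups taken from the sample labels. Per the study's methods, 100 ng total RNA was amplified by a Smart-seq2 protocol (the labels name a SMARTer Ultra Low kit), sequenced on a HiSeq2500 and mapped with BWA to mm9. Amplification can favour transcripts by length and GC content. The authors calculated the FPKM values and deposited them for each library, and the program was not given in the sources used here. FPKM is relative to the library total, so abundant transcripts move all others.

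Positions in the table matched GRCm38: 91.7% of 9515 genes found in RefSeq started within 1000 bp. Of 24930 entries, 285 repeated symbols were reduced to the entry with the highest mean, leaving 24385 features. The test took the 10018 genes whose mean reached 1 FPKM. No counts were given, so depth and counting error were unknown, relative depth was read from the steps of low values, and no count test was used.

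limma 3.58.1 (R 4.3.3) fitted log2(FPKM + 1) to stage and genotype as 4 group means with a variance trend, two-sided, with Benjamini-Hochberg adjustment. The pseudocount of 1 understates changes of low genes. Genes passed at an adjusted p under 0.05 and 1.5-fold change. Tested on simulated data for the E9.5 genotype comparison, limma recovered the mean size of the changes put in, but the smaller of the sizes tried did not pass the threshold. Ratios of 6 gene pairs were compared by two-sided exact permutation tests in Python 3.11.15 with numpy 2.4.6 and pandas 2.3.3. Of these, *Tagln*/*Actc1* and *Tnnc1*/*Tpm1* were not pairs of isoforms. The limma p-values rest on 1 spread per gene, pooled over the 4 groups of 2 libraries and drawn towards the trend over all genes. The ratio tests between stages permuted libraries of both genotypes together.

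Genes named were the 10, *Dgcr8*, list genes that passed and the most abundant gene of a list, and the 3 nearest genes to *Actc1*, *Tnni3*, *Tnnt1* and *Tagln*. *Pcsk7* was named for its overlap with *Tagln*, and *Myog*, *Myf5* and some other list genes to describe their lists. *Tnni2* and *Cnn1* passed between cKO stages, and their E9.5 genotype values were added after they were seen. The 10 genes, lists and tests were chosen with earlier results of these data known. Same-numbered replicates did not deviate together (correlations -0.116 to 0.0168), so the numbers were not used as pairs. Promoter sequences and starts were taken from RefSeq GRCm38.p6, which matched 9 of the 10 genes, and coding identity from GENCODE transcripts. Protein sequences were not used here.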

Additional observations from a re-analysis of the deposited data

Results flagged for a closer look

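The ratio of *Tagln* to *Actc1* moved in opposite directions with genotype at the 2 stages, in every library. Both E8.5 cKO libraries lay below both WT libraries (mean log2 difference -0.85), and both E9.5 cKO libraries lay above both WT libraries (1.04). The difference between the stages was 1.89. Ratios were not recomputed after quantile normalization, which changes genes unequally and turned the E8.5 genotype change of *Actc1* to -0.23. Exchanging genotype labels within each stage gave an exact permutation p of 0.0556, the smallest that 36 arrangements can give. After adjustment over 6 ratios it was 0.3333. Libraries that do not overlap, in opposite directions at the 2 stages, always give this smallest p. It was therefore fixed by the reason for the flag and adds no support to it. The groups of 2 libraries were too small to look for single values that stand apart.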

How the results depend on the processing

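Alternatives were other pseudocounts (0.1 and 5), no filter or a mean of 5 FPKM, median-ratio scaling, quantile normalization, no variance trend, a replicate block, a fit of only the 4 libraries compared, each library left out, and, chosen after seeing the data, a GC adjustment and a crossed pairing. Between genotypes at both stages and for the interaction, 0 of the 10 genes passed in each fit that gave these comparisons, which the crossed pairing did not and the fit of 4 libraries did not for the interaction. The number that rose with stage, first in WT and then in cKO, 2 and 4 as reported, was 0 and 1 without a filter, 6 and 5 under median-ratio scaling, 0 and 1 under quantile normalization, and 5 and 4 with the GC adjustment. With the replicate block it was 3 and 2, where *Tnnt2* gained the WT call and *Actc1* and *Acta2* lost the cKO call. Same-numbered libraries did not deviate together, so the numbers were not pairs. Over all genes the replicate block gave 145 higher and 4523 lower between WT stages, 178 and 2441 between cKO stages, and 11 and 1 between genotypes at E9.5. The crossed pairing gave 2 of the 10 genes in WT, and 125 higher and 4268 lower over all genes. With only the 4 libraries compared, 3 rose in WT and 3 in cKO. The median change of the 10 genes was 0.70 at E8.5 between genotypes, 1.72 between WT stages and 1.67 between cKO stages with median-ratio scaling, 0.32 and 0.43 between stages with quantile normalization, and 1.41 and 1.25 with the GC adjustment.

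Quantile normalization bounds the most abundant genes by construction, and turned the genotype change of *Actc1* to -0.23 at E8.5 and -0.12 at E9.5 and that of *Tpm1* at E8.5 to -0.31. It turned the WT stage change of *Acta2* to -0.024, *Tnnc1* to -0.033, *Tpm1* to -0.48 and *Tnnt1* to 0.29, and the cKO stage change of *Tnnc1* to -0.032, *Tpm1* to -0.16 and *Tnnt1* to 0.35. Median-ratio scaling turned *Tnnt1* to 0.41 and 0.30 with stage and *Tagln* at E8.5 to 0.013. The GC adjustment turned *Tnnt1* between WT stages to 0.14 and, at E9.5 between genotypes, *Tnnt2* to -0.026 and *Tnni1* to -0.00067. The cause of the changes under these last 2 settings, and of the lost calls without a filter beyond the larger number of genes tested, was not tested.

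A library left alone in its group was assumed to vary like the others. With each library left out, the counts that rose ranged from 0 to 3 in WT and 0 to 6 in cKO, and the median change from -0.042 to 0.72 between genotypes at E8.5, from 0.42 to 0.997 between WT stages and from 0.69 to 1.36 between cKO stages. Changes that crossed 0 at E8.5 between genotypes were *Acta1* (-0.14 to 0.99), *Tnnt2* (-0.17 to 0.81), *Tnni1* (-0.22 to 0.96), *Tnni3* (-0.94 to 1.12), *Tpm1* (-0.11 to 0.47) and *Tagln* (-0.84 to 0.15). Elsewhere they were *Tpm1* between WT stages (-0.0059 to 0.57) and *Tnnt2* at E9.5 (-0.15 to 0.39). Log2 ratios that crossed 0 at E8.5 were *Acta2*/*Actc1* (-0.11 to 0.077), *Tnnc1*/*Tpm1* (-0.077 to 0.45), *Acta1*/*Actc1* (-0.34 to 0.19) and *Tnni3*/*Tnni1* (-0.72 to 0.17). So did *Tnnc1*/*Tpm1* at E9.5 (-0.17 to 0.22) and *Acta1*/*Actc1* between stages (-0.064 to 0.35). Depth was unknown, so no counting error was given.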
